A study of Mus musculus with 15 samples.

Results

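Regulatory T cells (Tregs) from the skin of mice whose Foxp3-expressing cells carry floxed Rora alleles were compared with wild-type Tregs from skin-draining lymph nodes (LN), by RNA sequencing. The comparison takes 6 of the study's 15 libraries, chosen by their titles: 3 of Rora conditional knockout (cKO) skin Tregs and 3 of WT LN Tregs. The question it answers is how much of the skin Treg state is present where Rora is floxed. For this, 3 libraries of WT Tregs from untreated skin were set beside them, and the remaining 6 libraries, from skin treated with MC903, entered only the shared estimate of the spread.

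The cKO mice were Foxp3 cre-eyfp Rora fl/fl, and the WT mice Foxp3 cre-eyfp, both of strain C57BL/6. All the groups thus carried the Foxp3-driven Cre with its yellow fluorescent protein (YFP), and all were sorted as CD45+CD3+CD4+YFP+ cells from untreated adult mice. Skin Tregs came from back skin and ears digested for 90 minutes with Liberase TL and DNase. LN Tregs came from superficial and deep axillary nodes that were homogenised, with no digestion stated. No library of cKO LN Tregs was analysed here. Tissue, genotype and digestion therefore move together between cKO skin and WT LN and cannot be told apart there, whereas cKO and WT skin differ by label in genotype alone. Titles call the libraries biological replicates without naming animals, so the p-values measure the spread between these samples.

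Tregs are CD4 T cells that restrain immune responses and depend on the transcription factor Foxp3. In barrier tissues such as skin they carry a programme of their own, with the IL-33 receptor, amphiregulin, IL-10 and the factors Gata3 and Batf, and they lose the receptors and factors of resting T cells that circulate through lymph nodes. Rora encodes ROR-alpha, a nuclear receptor that binds DNA at an AGGTCA core preceded by A or T bases, drives the clock gene Arntl in many tissues and competes there with the repressors REV-ERB-alpha and REV-ERB-beta (Nr1d1 and Nr1d2).

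Total counts ran from 24507017 to 27236288 in cKO skin, 19774723 to 25063824 in WT skin and 24589419 to 27745008 in WT LN, and 13578 of 24015 genes passed the filter on low counts. Levels are given as CPM, counts scaled to library size, which do not correct for gene length and so compare libraries, not genes. All 11 markers of T cells and Tregs had counts in each group, with summed levels of 10830 to 12180 CPM in cKO skin, 11310 to 11860 CPM in WT skin and 7182 to 8908 CPM in WT LN. Replicate 1 of cKO skin had the highest sums of its group for fibroblast and endothelial markers and for macrophage, dendritic and Langerhans cell markers. Replicate 2 of WT skin lay apart on the second principal component. Replicate 3 of WT LN had the highest sums of its group for B cell markers and for macrophage, dendritic and Langerhans cell markers. That last list also holds H2-Aa, Cd74 and Ciita, so its sum is not particular to macrophages. Totals of genes called for cKO skin against WT LN and WT skin, and some single calls, are also given without these libraries. How many list medians moved without them is given in the last section.

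Markers of other cells moved with tissue. The 12 tested B cell markers all fell in cKO skin, where their summed level was 22.2, 25.3 and 22.6 CPM, against 306, 277 and 899 CPM in WT LN, and Bank1 and Pax5 were at 0 in the 3 cKO skin libraries. Of 16 tested keratinocyte markers, 11 rose in cKO skin and none fell, with summed levels of 409, 451 and 241 CPM against 18.4, 19.95 and 18.3 CPM in WT LN. Dsg1a, Fgfr2, Krt15, Lor and Trp63 were at 0 in WT LN. Of 16 fibroblast and endothelial markers 8 rose and 1 fell, summing to 231, 110 and 52.0 CPM in cKO skin and 135, 157 and 114 CPM in WT LN. Macrophage, dendritic and Langerhans cell markers summed to 2189, 1341 and 1010 CPM in cKO skin and 1028, 879 and 2866 CPM in WT LN, with 6 of 17 higher and 2 lower. Of 10 markers of mast cells and granulocytes 1 was higher, of 4 melanocyte markers 1, of 3 erythroid and platelet markers 2, and of 10 markers of other lymphocytes (CD8 and gamma-delta T cells, NK cells, innate lymphoid cells) 2 were higher and 4 lower. In WT skin the keratinocyte markers summed to 686, 474 and 315 CPM, overlapping with cKO skin. Of these markers 1, Sfn, was called lower in cKO than in WT skin, with a log2 difference of -0.76 ± 0.16 (adjusted p = 0.0387). Sfn alone gave 130, 172 and 154 CPM of the cKO skin sums and 248, 306 and 217 CPM of the WT skin sums. Fibroblast and endothelial markers summed to 141, 103 and 207 CPM in WT skin, and those of macrophages, dendritic and Langerhans cells to 877, 1104 and 1708 CPM. No other marker of another cell type was called between cKO and WT skin. The part of these cells in the differences below was not tested. In bulk samples, fewer cells of a type and less RNA per cell cannot be told apart.

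**Figure D1:**
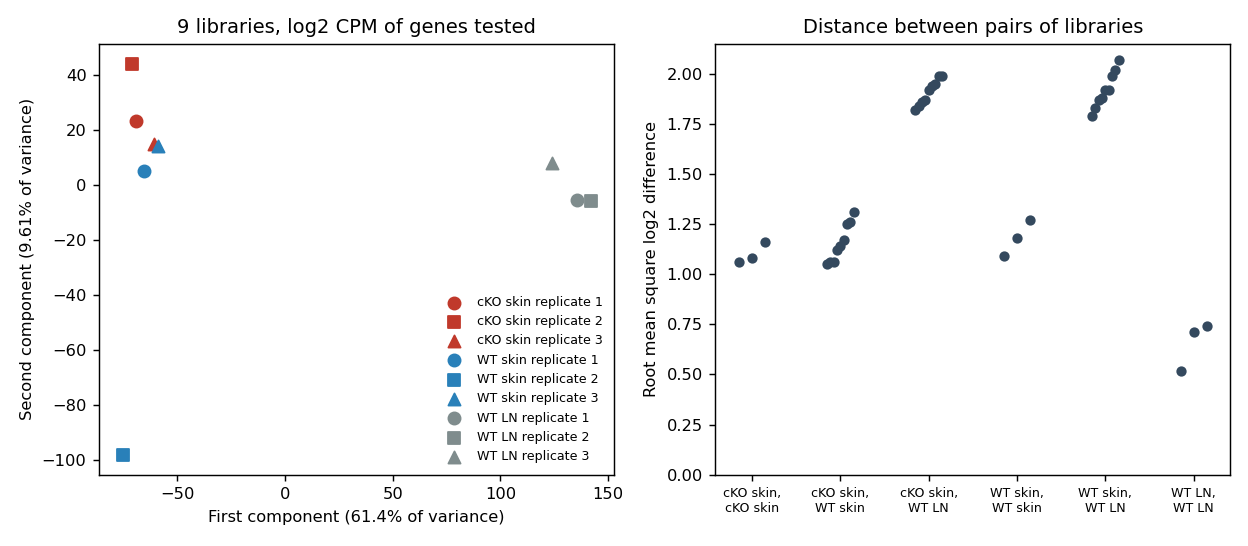
Left, the first 2 principal components of the 9 libraries of cKO skin, WT skin and WT LN, on log2 CPM of the tested genes, with colour for group and shape for replicate. Right, the root mean square log2 difference between each pair of libraries, by pair of groups. The cKO and WT skin libraries lie together on the first component, far from WT LN, and WT skin replicate 2 is alone at the bottom of the second.

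Rora itself, the floxed gene, was read in every cKO skin library. It had 822, 1074 and 1199 CPM in cKO skin, 1327, 1341 and 1510 CPM in WT skin and 58.6, 52.8 and 66.6 CPM in WT LN. Every cKO skin library was above every WT LN library and below every WT skin library. The log2 change over WT LN was 4.12 ± 0.17 in cKO skin (SE, edgeR quasi-likelihood test, adjusted p = 2.55e-11), and the cKO minus WT skin difference of -0.43 ± 0.15 did not pass (adjusted p = 0.25). The counts cover the whole gene, and which exons are deleted is not given in the sources used here, so reads from exons outside that part still count as Rora and the level does not measure the deletion.

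Against WT LN, 3829 genes were higher in cKO skin (28.2% of those tested) and 3871 were lower (28.5%), 56.7% in all. Counts of list members are to be read beside these shares. A gene is called where edgeR's quasi-likelihood test gave it an adjusted p under 0.05, after Benjamini-Hochberg correction across the tested genes. Large changes were more often upward. At a log2 change of 3 or more, 1026 genes were higher (7.56%) and 418 lower (3.08%). Without the 3 libraries that stand apart, 7345 genes were called in place of 7700. In WT skin against the same LN libraries 7824 genes (57.6%) were called, 3911 higher and 3913 lower (28.8% each). These 2 comparisons share their LN libraries, so similar numbers are no independent measurement.

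How far the cKO skin Tregs stood from WT skin Tregs was therefore measured in the skin libraries alone. Pairs of a cKO and a WT skin library differed by a root mean square of 1.05 to 1.31 log2 (median 1.14), and pairs within cKO skin by 1.06 to 1.16 (median 1.08). Pairs within WT skin differed by 1.09 to 1.27 (median 1.18). Pairs within WT LN differed less, by 0.518 to 0.743 (median 0.711), so the spread among skin libraries of the same genotype was wide. A cKO skin library differed from a WT LN library by 1.82 to 1.99 (median 1.92). On the first component, with 61.4% of the variance, cKO skin lay at -69.32, -70.98 and -60.94, WT skin at -65.7, -75.49 and -59.26, and WT LN at 135.7, 142 and 124. The skin genotypes overlapped on this axis and WT LN was apart from both.

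Between cKO and WT skin, 109 of 13578 genes were called (0.803%), 54 higher in cKO (0.398%) and 55 lower (0.405%). This count depended on the tool and on single libraries, with 323 genes in DESeq2, 67 and 62 without replicate 2 or 3 of cKO skin and 60 without replicate 3 of WT skin. In this contrast WT LN cancels, so it is also the test of whether a gene's change against WT LN differed between cKO and WT skin. With no cKO LN library, whether a gene also differs by genotype in LN cannot be tested here. Genes were then grouped by the mean of both skin groups against LN, in which 30.3% were higher and 32.5% lower. Of the 4115 genes higher in skin, 28 were higher and 27 lower in cKO than in WT skin (1.34%), with a median cKO minus WT difference of -0.01 log2. Of 4419 genes higher in LN, 16 were higher and 22 lower in cKO (0.86%), with a median of 0.01. A class so made takes in cKO skin, so a fall in cKO skin alone can place a gene in the LN-high class. Of those 22 genes, 8 were below LN in WT skin by its own test, 13 were not called there and Tnfrsf25 was above LN. All the 16 higher genes were below LN in WT skin. Of the skin-high genes, the 27 lower ones were all above LN in WT skin, and of the 28 higher ones 24 were and 4 were not called. For the 16 and the 27 genes the direction in WT skin follows from how the classes are made, so it is no separate result. Among the 5044 genes called in neither direction, 10 and 6 differed (0.317%). Without cKO skin replicate 2, cKO skin replicate 3 or WT skin replicate 3 the skin-high count of 55 was 35, 29 or 32 and the LN-high count of 38 was 21, 23 or 21, and without cKO skin replicate 1 the LN-high count was 24.

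A gene that missed the test was not thereby shown to be equal. For 63.1% of the skin-high genes the 95% interval of the cKO minus WT difference lay within a log2 of 1 on either side, as it did for 66.4% of the LN-high genes. The genes with the largest tissue difference were measured less tightly. Of 1571 called genes (11.6% of those tested) whose mean skin level was at least 2 log2 above LN, 20 were higher and 10 lower in cKO, and 28.5% had an interval within 1. Their median change over LN was 3.66 in cKO skin and 3.59 in WT skin.

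**Figure D2:**
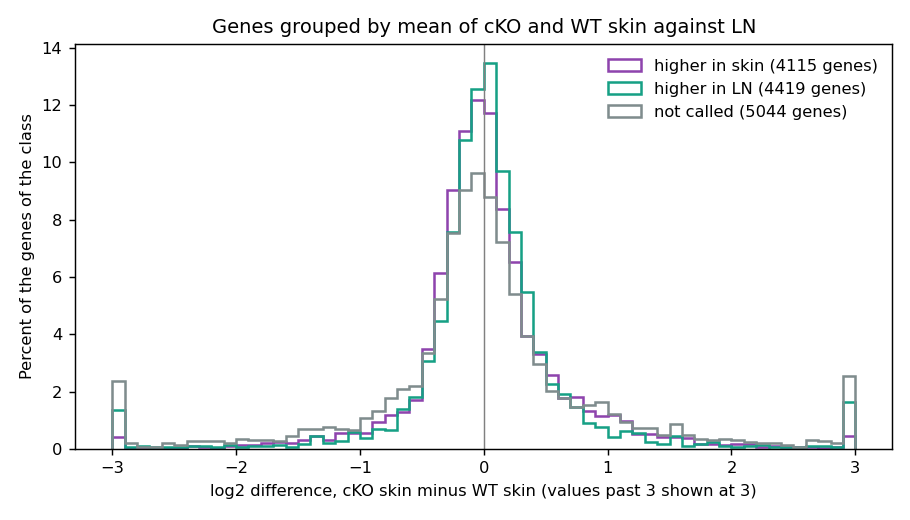
Distribution of the cKO minus WT skin log2 difference (horizontal axis, values past 3 drawn at 3) as a percent of each class (vertical axis). The classes are genes higher in skin (4115), higher in LN (4419) or called in neither direction (5044) by the mean of cKO and WT skin against LN. All 3 distributions peak at 0, and the uncalled class is the widest.

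The Treg identity genes were mostly higher in cKO skin than in WT LN. Foxp3, the lineage factor, had 150, 163 and 128 CPM in cKO skin, 148, 202 and 163 CPM in WT skin and 28.4, 16.2 and 41.8 CPM in WT LN. Its log2 change over LN in cKO skin was 2.35 ± 0.26 (adjusted p = 1.68e-06). The cKO and WT skin libraries overlapped and lay above all LN libraries. Of 21 tested identity genes 15 were higher in cKO skin and 5 lower, with a median log2 change of 0.86 against -0.03 over all genes tested. Ctla4, which removes costimulatory ligands from antigen-presenting cells, rose by 3.31 ± 0.15, with 3194, 2837 and 2939 CPM in cKO skin and 306, 305 and 295 CPM in WT LN. Il2ra, the high-affinity IL-2 receptor chain, rose by 0.86 ± 0.20, the costimulatory receptor Icos by 3.28 ± 0.18 and the integrin Itgae by 2.58 ± 0.21.

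The 5 identity genes lower in cKO skin were Nrp1, Gpr83, Folr4, Lrrc32 and Nt5e. Nrp1, a semaphorin and VEGF receptor that marks many thymus-derived Tregs, had 48.5, 49.9 and 51.2 CPM in cKO skin and 277, 293 and 315 CPM in WT LN. Its log2 change of -2.56 ± 0.17 stood beside -2.59 ± 0.17 in WT skin. Lrrc32, which holds latent TGF-beta on the Treg surface, had 18.7, 30.8 and 24.3 CPM in cKO skin, 70, 38.2 and 102 CPM in WT skin and 67.6, 145 and 86.4 CPM in WT LN. It was called against LN in cKO skin (-2.02 ± 0.34) and not in WT skin (-0.52 ± 0.32), and the test of cKO against WT skin gave an adjusted p of 0.0515.

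The tissue Treg programme was higher in cKO skin for 29 of 30 tested genes, none lower, with a median log2 change of 3.41. WT skin gave 29 higher and a median of 3.44. Like the other lists, this one was chosen with earlier results of these data known, so its counts describe it and are no independent support. Il10, the suppressive cytokine, had 559, 533 and 549 CPM in cKO skin, 556, 556 and 545 CPM in WT skin and 1.81, 2.92 and 3.58 CPM in WT LN. The skin libraries of both genotypes overlapped. The log2 change over LN in cKO skin was 7.62 ± 0.21 (adjusted p = 4.76e-13), and the cKO minus WT skin difference was -0.01 ± 0.15. Areg, the epidermal growth factor receptor ligand of tissue Tregs, had 557, 391 and 425 CPM in cKO skin, 384, 518 and 334 CPM in WT skin and 5.18, 7.04 and 4.58 CPM in WT LN. It rose over LN by 6.35 ± 0.27. Il1rl1, the IL-33 receptor, had 820, 767 and 863 CPM in cKO skin, 649, 593 and 768 CPM in WT skin and 21.7, 19.8 and 26.8 CPM in WT LN, and rose over LN by 5.16 ± 0.18. The lowest cKO skin library just met the highest WT skin library.

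Klrg1, an inhibitory cadherin receptor of differentiated Tregs, rose by 3.73 ± 0.23 over LN, and Ctla2a, a cathepsin inhibitor, by 5.49. Dgat1 and Dgat2, which make triglyceride from diacylglycerol, also rose. Dgat1 had 702, 728 and 753 CPM in cKO skin, 914, 1043 and 934 CPM in WT skin and 29.5, 27.9 and 25.5 CPM in WT LN, rising over LN by 4.72 ± 0.12 (adjusted p = 4.25e-13), the smallest adjusted p of the comparison. Every cKO skin library lay below every WT skin library, and the difference of -0.41 ± 0.10 did not pass (adjusted p = 0.0829). Penk, the enkephalin precursor, was the 1 member that did not pass, at 0.72 ± 0.34. Within the programme, cKO and WT skin differed by test in 4 genes: Gzmb, Gata3 and Ahr were higher in cKO skin and Cxcr6 was lower.

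**Figure D3:**
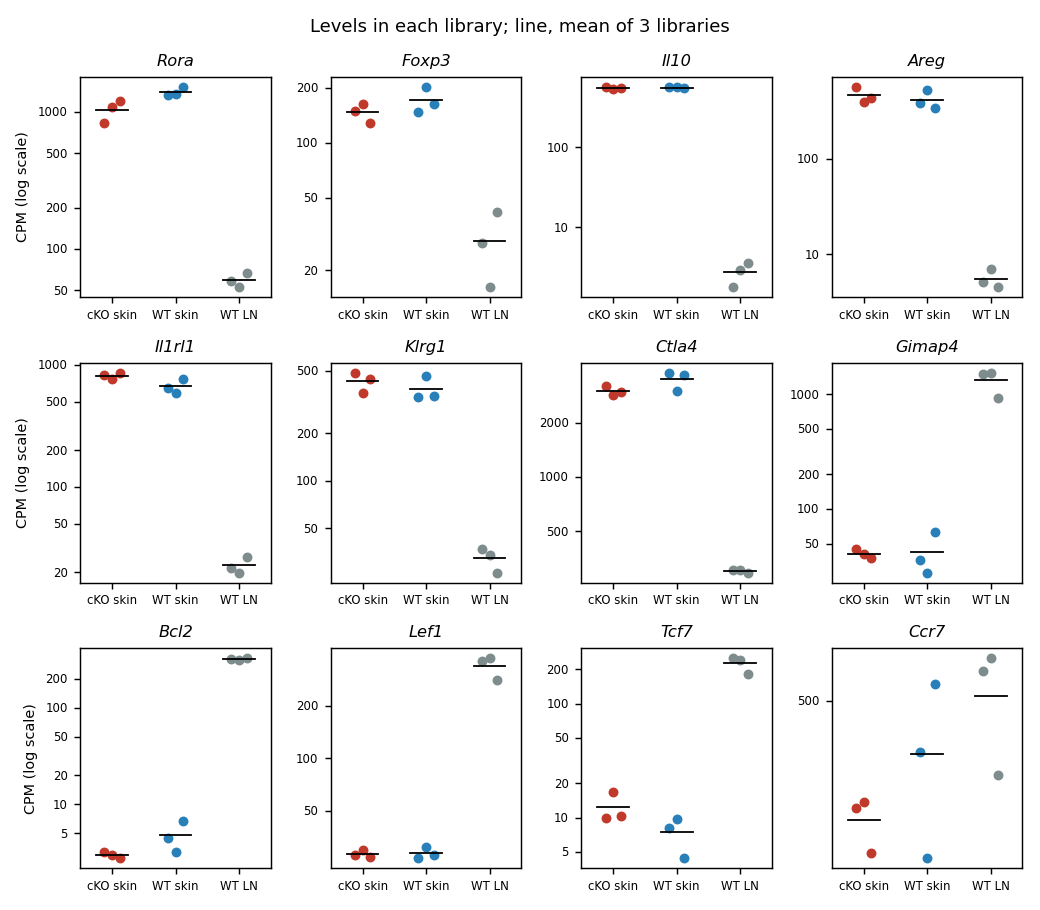
CPM on a log axis in each library of cKO skin, WT skin and WT LN for 12 genes, with the mean of 3 libraries as a line. Rora, Foxp3, Il10, Areg, Il1rl1, Klrg1 and Ctla4 are high in both skin groups and low in WT LN, and Gimap4, Bcl2, Lef1 and Tcf7 are the reverse. Ccr7 overlaps between WT skin and WT LN.

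The lymphoid and resting programme fell in cKO skin for 17 of 24 tested genes and rose for 3, with a median of -2.84 (WT skin, 18 lower, 2 higher, median -3.0). Bcl2, the survival protein of resting lymphocytes, had 3.18, 2.97 and 2.77 CPM in cKO skin, 4.49, 3.23 and 6.78 CPM in WT skin and 320, 309 and 325 CPM in WT LN. Its change in cKO skin was -6.74 ± 0.28 (adjusted p = 3.04e-11). Every skin library of either genotype was far below the LN level.

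Lef1 and Tcf7, partner factors of naive and memory T cells, fell by 3.58 and 4.18 on the log2 scale in cKO skin. Cxcr5, the receptor that leads T cells into B cell follicles, had 0.127, 0.0862 and 0.0391 CPM in cKO skin and 42, 47.8 and 44.5 CPM in WT LN, with B cell markers also low in cKO skin as given above. Ccr7, the receptor for lymph node chemokines, changed less, with 320, 329 and 266 CPM in cKO skin, 405, 261 and 536 CPM in WT skin and 566, 597 and 368 CPM in WT LN, a cKO skin change of -0.74 ± 0.22 (adjusted p = 0.00851). The cKO skin libraries lay below all LN libraries, while WT skin overlapped with LN. S1pr1, which drives exit from lymph nodes, fell by 1.41 on the log2 scale. The 3 members higher in cKO skin were Foxo1 (1.53 ± 0.28), Il7r (1.71 ± 0.18) and Il6st (1.21). Il6st was not called against LN in WT skin (0.15, edgeR adjusted p = 0.515). It was higher in cKO than in WT skin by 1.05 on the log2 scale (edgeR adjusted p = 0.0153).

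All 8 GIMAP GTPases, small lymphocyte survival proteins, fell in cKO skin, by a median of 3.29 on the log2 scale, as did all 8 in WT skin. Gimap4 had 44.7, 40.4 and 37.4 CPM in cKO skin against 1506, 1535 and 916 CPM in WT LN. Among 23 survival and death genes 13 were higher in cKO skin and 3 lower. Bcl2l1, which encodes the anti-death protein Bcl-xL, rose by 2.75 ± 0.13 while Bcl2 fell, and Pmaip1, the pro-death BH3 protein Noxa, rose by 4.25 ± 0.18. No survival or GIMAP gene differed by test between cKO and WT skin.

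The clock and ROR or REV-ERB target genes were higher in cKO skin for 17 of 24 tested members and lower for 2, with a median of 1.61 (WT skin, 17 and 1, median 2.03). Arntl, which encodes the clock activator BMAL1, had 21.4, 39.1 and 35.3 CPM in cKO skin, 122, 98.8 and 117 CPM in WT skin and 35.2, 33.7 and 29.1 CPM in WT LN. The cKO skin and LN libraries overlapped, and WT skin was above both. The log2 change over LN was -0.03 ± 0.19 in cKO skin (adjusted p = 0.90) and 1.79 ± 0.19 in WT skin (adjusted p = 1.04e-06), a difference of -1.82 ± 0.19 (adjusted p = 1.9e-04). Nr1d1 had 23.6, 50.4 and 20.6 CPM in cKO skin, 147, 106 and 111 CPM in WT skin and 6.18, 6.72 and 5.93 CPM in WT LN. It lay between WT LN and WT skin in every cKO library, 2.33 ± 0.31 above LN and 1.94 ± 0.30 below WT skin on the log2 scale (adjusted p = 0.0036; 0.0689 without the 3 libraries that stand apart).

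The other clock genes differed less. Nfil3, a repressor that opposes Dbp, had 664, 726 and 649 CPM in cKO skin, 618, 472 and 378 CPM in WT skin and 9.66, 5.07 and 7.12 CPM in WT LN. Per1, Nr1d2, Cry1, Hlf and Ciart were higher than LN in cKO skin by 2.24, 2.17, 1.20, 4.64 and 2.49 log2, against 2.93, 2.82, 1.87, 5.58 and 3.20 in WT skin. None of these 5 passed the test between cKO and WT skin; the smallest adjusted p was 0.0645, for Cry1. Clock, the partner of BMAL1, rose over LN by 1.24 ± 0.18 in cKO skin and 1.30 ± 0.18 in WT skin. Dbp, a clock output factor, fell against LN in cKO skin (-1.53 ± 0.46), and Timeless, a replication fork protein with an uncertain clock role in mammals, fell by 2.27 on the log2 scale.

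Start-site sequences were read for the genes that differed between cKO and WT skin and matched RefSeq windows (build GRCm38.p6; the counts were made on mm9). A window runs from 250 bases before to 50 after an annotated start. The motif TAGGTCA, the ROR core with a T before it, and its shorter form AGGTCA, which lies inside it, were searched on both strands. They occur in 2.61% and 16.3% of all 32851 windows. By gene, over all windows of a gene, the shares were 2.97% and 18.1% of 27025 genes. Of 42 matched genes lower in cKO than in WT skin, 4 held TAGGTCA (Arntl, Ccr6, Cd320 and Leo1; 9.52%) and 13 held AGGTCA (31.0%). Of 40 matched genes higher in cKO skin, 0 and 4 did. Windows were also read for clock and followed genes. Of those not called between cKO and WT skin, Nfil3 held TAGGTCA, and Clock, Per1, Nr1d2, Foxp3, Il1rl1 and Tcf7 held only AGGTCA. A match describes these letters and is not a binding site. Windows of Arntl, Ccr6 and Tnfrsf25 are shown as examples that hold a match, among genes whose values are described in full. Other genes that fell more than Arntl, among them Nt5e, Tbc1d4, St6galnac3, Mns1 and Nr1d1, held neither form. The windows are printed with the AGGTCA or TAGGTCA match, or its reverse complement, in capitals. Arntl lies at chr7:113207261-113207560, plus strand, with the match 31 bases after the start. Ccr6 lies at chr17:8235793-8236092, plus strand, with a match on the minus strand, 44 bases before the start. Tnfrsf25 lies at chr4:152116093-152116392, plus strand, with only the shorter form, on the minus strand, 187 bases before the start. Each gene has another annotated start whose window holds neither form.
Arntl: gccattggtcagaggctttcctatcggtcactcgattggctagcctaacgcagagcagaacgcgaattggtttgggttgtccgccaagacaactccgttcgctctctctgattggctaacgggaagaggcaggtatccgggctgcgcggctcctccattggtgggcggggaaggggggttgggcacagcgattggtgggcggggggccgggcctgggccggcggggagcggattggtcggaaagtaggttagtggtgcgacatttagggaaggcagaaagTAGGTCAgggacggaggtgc
Ccr6: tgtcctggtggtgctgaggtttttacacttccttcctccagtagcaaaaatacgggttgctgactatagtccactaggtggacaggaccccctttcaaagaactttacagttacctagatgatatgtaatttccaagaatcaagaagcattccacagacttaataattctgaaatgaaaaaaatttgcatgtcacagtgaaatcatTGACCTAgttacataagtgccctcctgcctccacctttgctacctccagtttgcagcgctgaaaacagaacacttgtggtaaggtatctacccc
Tnfrsf25: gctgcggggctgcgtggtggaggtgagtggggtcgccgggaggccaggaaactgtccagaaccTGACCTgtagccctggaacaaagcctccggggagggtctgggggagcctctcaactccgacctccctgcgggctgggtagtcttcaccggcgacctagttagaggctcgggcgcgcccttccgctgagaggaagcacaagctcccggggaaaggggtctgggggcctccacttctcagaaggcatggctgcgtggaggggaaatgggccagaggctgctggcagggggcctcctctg

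Tnfrsf25 encodes DR3, the receptor for the TNF ligand TL1A, which expands Tregs. It had 31.3, 39.1 and 31.1 CPM in cKO skin, 146, 176 and 149 CPM in WT skin and 128, 131 and 98 CPM in WT LN. Each cKO skin library was below all others, and each WT skin library was above all LN libraries. The log2 change against LN was -1.82 ± 0.16 in cKO skin (adjusted p = 1.74e-07) and 0.39 ± 0.16 in WT skin (adjusted p = 0.0424), and the difference was -2.21 ± 0.17 (adjusted p = 6.59e-06). Of 35 tested TNF receptors and ligands 11 were higher in cKO skin than in LN (31.4%) and 8 lower (22.9%), with a median of 0.29 (WT skin, 11 and 13, median 0.18). These shares were near the 28.2% and 28.5% of all genes tested.

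The costimulatory receptors of the TNF family did not share this fall. Tnfrsf4 (OX40) rose over LN by 2.43 ± 0.16 in cKO skin, Tnfrsf9 (4-1BB) by 2.65 ± 0.17, Tnfrsf18 (GITR) by 1.71 ± 0.17 and Tnfrsf1b (TNF receptor 2) by 1.96 ± 0.20, and none differed by test from WT skin. The list members that did were Tnfrsf25 and Tnfsf13b, lower in cKO skin, and Cd40lg, Tnfsf8 and Tnfsf10, higher. Tnfsf13b, the B cell survival factor BAFF, was at 0 in the 3 cKO skin libraries and had 0.142, 0.929 and 0.754 CPM in WT skin and 3.66, 4.19 and 4.49 CPM in WT LN. Its call between the skin groups was near the threshold (edgeR adjusted p = 0.0468) and rests on these low levels. The Tnfsf10 call was lost without any 1 skin library other than cKO skin replicate 2 (adjusted p 0.0616 to 0.154). Among ligands, Lta and Ltb, the lymphotoxins that organise lymphoid tissue, fell by 3.63 and 1.31 on the log2 scale. Tnfsf8, the CD30 ligand, had 111, 59.4 and 88.4 CPM in cKO skin, 17.5, 19.4 and 22.4 CPM in WT skin and 79.2, 70.3 and 59.6 CPM in WT LN. Cd40lg, the ligand for CD40, had 78.8, 70.4 and 68.5 CPM in cKO skin, 28.5, 32.6 and 35.1 CPM in WT skin and 60.1, 62.4 and 61.5 CPM in WT LN. Both were near the LN level in cKO skin (0.31 and 0.24, not called) and below it in WT skin (-1.82 and -0.94), with cKO minus WT differences of 2.13 ± 0.30 (adjusted p = 0.00212) and 1.18 ± 0.16 (adjusted p = 0.00185). Without the 3 libraries that stand apart the Tnfsf8 difference was not called (adjusted p = 0.0752).

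Of 26 homing and adhesion receptors 17 were higher in cKO skin than in WT LN and 6 lower, with a median of 2.11. The 6 lower members were Itga4, Ccr6, Ccr9, Cxcr3, Itgb1 and Itgb7. Among the higher ones, Ccr2 rose by 3.98 ± 0.26, Ccr8 by 2.43 ± 0.24, Ccr10, the receptor for the keratinocyte chemokine CCL27, by 2.78 ± 0.48, and Ccr4 by 1.10 ± 0.23. Cxcr6, the receptor for CXCL16, had 360, 338 and 251 CPM in cKO skin, 581, 454 and 799 CPM in WT skin and 25.7, 32.2 and 30.8 CPM in WT LN. It rose over LN by 3.42 ± 0.23 and was lower than in WT skin by a log2 difference of -0.95 ± 0.21 (adjusted p = 0.0438). That call was lost when any 1 skin library other than WT skin replicate 2 was left out (adjusted p up to 0.19). Itga4, an integrin alpha chain for adhesion to activated endothelium, fell to 2.67, 2.93 and 0.547 CPM in cKO skin, against 88, 86.8 and 70.5 CPM in WT LN.

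Ccr6, the receptor for CCL20 and a known gene of type 17 cells, whose start-site window is printed above, had 17.3, 11.7 and 6.68 CPM in cKO skin, 108, 111 and 124 CPM in WT skin and 59.3, 63.1 and 109 CPM in WT LN. The cKO skin libraries were below all others, whereas WT skin and LN overlapped. The log2 change against LN was -2.70 ± 0.33 in cKO skin (adjusted p = 6.71e-06) and 0.57 ± 0.31 in WT skin (adjusted p = 0.124), and the difference between the skin groups was -3.27 ± 0.34 (adjusted p = 2.09e-04). Gpr15, a homing receptor of T cells for colon and skin, went the other way, with 24.6, 19.1 and 28.9 CPM in cKO skin, 5.34, 4.6 and 3.28 CPM in WT skin and 9.84, 18.5 and 9.92 CPM in WT LN. It was above LN in cKO skin (0.92 ± 0.26, adjusted p = 0.00676) and below LN in WT skin (-1.53 ± 0.27). Each cKO skin library exceeded every LN library, by a small margin over replicate 2 of LN. The difference between the skin groups was 2.45 ± 0.28 (adjusted p = 2.76e-04; 0.0561 with limma-voom). Without the 3 libraries that stand apart the cKO skin call against LN was lost (adjusted p = 0.0741).

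Among 19 suppressive molecules 11 were higher in cKO skin and 2 lower, with a median of 1.71 (WT skin, 11 and 0, median 1.18). Gzmb, the cytotoxic granule protease granzyme B, had 5037, 3062 and 4017 CPM in cKO skin, 988, 842 and 973 CPM in WT skin and 11.8, 6.66 and 14.8 CPM in WT LN. The 3 groups did not overlap. Its log2 change over LN was 8.51 ± 0.31 in cKO skin and 6.40 ± 0.29 in WT skin, a difference of 2.11 ± 0.23 (adjusted p = 2.35e-04). Fgl2, a secreted inhibitor of dendritic cells, rose over LN by 3.86 ± 0.29, the inhibitory receptor Havcr2 by 3.96 ± 0.32 and Tgfb1 by 1.76 ± 0.21. The 2 lower members were Nt5e and Pdcd1, a Pdcd1 call lost without cKO skin replicate 3 or LN replicate 3 (adjusted p = 0.0672 and 0.0974). Nt5e, the ectoenzyme CD73 that makes adenosine from AMP, had 33.6, 29.1 and 37.7 CPM in cKO skin, 172, 110 and 351 CPM in WT skin and 207, 177 and 270 CPM in WT LN. It fell in cKO skin by 2.70 against LN, and by 2.65 against WT skin (adjusted p = 8.16e-04), on the log2 scale. WT skin and LN overlapped.

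The transcription factors of T cell states were higher in cKO skin for 21 of 26 tested genes and lower for Eomes and Stat6, with a median of 1.97 (WT skin, 21 and 2, median 1.75). Id2, an inhibitor of E proteins, rose over LN by 4.65 ± 0.18, Batf, an AP-1 partner of Irf4, by 2.53 ± 0.16 and Prdm1, the repressor Blimp-1, by 3.38 ± 0.27. Gata3, the type 2 factor, had 983, 1100 and 1158 CPM in cKO skin, 866, 614 and 674 CPM in WT skin and 258, 250 and 246 CPM in WT LN. The order was the same in all libraries, cKO skin above WT skin above LN. Its change over LN was 2.10 ± 0.14 in cKO skin and 1.51 in WT skin, and the difference of 0.59 ± 0.13 had an adjusted p of 0.0448. It was not called without any 1 skin library other than WT skin replicate 1 (adjusted p 0.0575 to 0.173). Ahr, the receptor for aryl hydrocarbons, had 115, 148 and 162 CPM in cKO skin, 75.1, 65.6 and 53.4 CPM in WT skin and 11.4, 10.4 and 18.4 CPM in WT LN, a cKO minus WT difference of 1.13 ± 0.21 (adjusted p = 0.0153). Without replicate 2 or 3 of either skin group that call was lost (adjusted p 0.0551 to 0.0849). Runx1, a partner of Foxp3, had 40.6, 54.4 and 42.3 CPM in cKO skin, 82.9, 83.1 and 86.8 CPM in WT skin and 38, 37.6 and 47.3 CPM in WT LN. It was not called against LN in cKO skin (0.16, adjusted p = 0.39), was 1.04 above LN in WT skin, and differed between the skin groups by -0.88 (adjusted p = 0.00996; 0.0575 and 0.0677 without cKO skin replicate 1 or 3).

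Effector genes of helper T cell types were raised in parts. Of 16 tested type 2 genes 11 were higher in cKO skin and Stat6, the IL-4 signal transducer, was lower. The type 2 cytokines were scarce in every library: Il13 had 4.32, 5 and 4.45 CPM in cKO skin, 2.32, 4.2 and 2.58 CPM in WT skin and at most 0.071 CPM in WT LN. Il5 had 1.91, 6.12 and 0 CPM in cKO skin and was at 0 in all LN libraries. Of 18 type 17 genes 14 were higher in cKO skin and Ccr6 was lower. Il17a, Il17f and Il22 stayed below 5 CPM in each cKO skin library.

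Of 19 tested type 1 genes 8 were higher in cKO skin (42.1%) and 5 lower (26.3%), with a median of 0.92 (WT skin, 8 and 4, median 0.0922). Over all genes tested the shares were 28.2% and 28.5%. Tbx21, the type 1 factor T-bet, rose by 1.91 ± 0.27 and Ifng by 2.22 ± 0.47, while Cxcr3, the receptor for interferon-induced chemokines, fell by 1.73 on the log2 scale. Nkg7, a cytotoxic granule membrane protein, had 222, 193 and 158 CPM in cKO skin, 84.3, 102 and 70.6 CPM in WT skin and 73.4, 81.7 and 147 CPM in WT LN. It was called over LN in cKO skin (0.92 ± 0.23) and differed from WT skin by 1.16 ± 0.23 (adjusted p = 0.0226), a call lost without cKO skin replicate 1 or 2 or WT skin replicate 1 or 3 (adjusted p 0.0682 to 0.107). Cd8a, a marker of CD8 T cells, had 0, 0 and 0.312 CPM in cKO skin and 8.13, 4.12 and 15 CPM in WT LN, and Eomes, a factor of CD8 and NK cells, was at 0 in the 3 cKO skin libraries.

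Immediate early and stress genes were among the largest rises in cKO skin, with Atf3, Ier3, Fosl2, Fosb and Fos among the 12 that the naming rule takes. Atf3, a stress-induced factor, had 302, 284 and 313 CPM in cKO skin, 265, 407 and 249 CPM in WT skin and 0.213, 0.127 and 0.439 CPM in WT LN, a log2 change of 10.13 ± 0.39 in cKO skin. Skin libraries overlapped and LN was near 0. Of 27 immediate early and heat shock genes 26 were higher in cKO skin and the chaperonin partner Hspe1 was lower, a call lost without cKO skin replicate 2 or 3 or LN replicate 1 or 2 (adjusted p 0.0553 to 0.117; list median 3.54; WT skin, 26 and 0, median 2.81). Fos rose by 6.98 ± 0.34, Fosl2 by 8.84 ± 0.38 and the heat shock gene Hspa1a by 5.38 ± 0.54. Crem, a cAMP-responsive factor, had 3621, 3435 and 3331 CPM in cKO skin and 38.8, 48.1 and 48.4 CPM in WT LN. The cells of both skin groups were digested and no digestion is stated for LN, so tissue and handling cannot be told apart for these genes.

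NF-kappa-B subunits and targets were higher in cKO skin for 19 of 22 tested genes, none lower. Tnfaip3, the feedback inhibitor A20, rose by 4.30 ± 0.23, Nfkbia by 2.29 ± 0.13 and Rel by 2.57 ± 0.21. Ier3, an early response gene of this pathway, had 296, 176 and 172 CPM in cKO skin, 57.9, 79.9 and 62.2 CPM in WT skin and at most 0.659 CPM in WT LN. It was the 1 immediate early gene that differed between the skin groups (1.69 ± 0.27, adjusted p = 0.00554). Of 24 TCR response genes 15 were higher in cKO skin and 3 lower. Nr4a1, induced by TCR signals, rose by 3.13 ± 0.23, and Egr2 and Myc fell by 0.93 and 0.98 on the log2 scale. No TCR response gene differed by test between the skin groups.

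Interferon-stimulated genes fell in cKO skin for 26 of 28 tested members, none higher, with a median of -2.39 (WT skin, 25 lower, 1 higher, median -2.23). Usp18, which limits interferon signalling, had 2.33, 3.23 and 2.38 CPM in cKO skin and 188, 193 and 86 CPM in WT LN. Isg15 (0.43 ± 0.21) and Stat2 (0.35 ± 0.22) did not pass. Ifit2 was lower than LN in both skin groups, by less in cKO skin: 5.55, 5.26 and 5.98 CPM in cKO skin, 2.46, 2.74 and 1.94 CPM in WT skin and 44.7, 51.4 and 34.6 CPM in WT LN. That difference of 1.23 ± 0.27 (adjusted p = 0.0387) was not called without any 1 of the 6 skin libraries (adjusted p 0.0681 to 0.141) or with limma-voom (0.413).

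Of 30 cell cycle genes 10 fell and 2 rose in cKO skin, Pcna, the replication clamp, by 1.10 ± 0.14 and Kif23, a motor of cell division, by 3.22 ± 0.34. The 10 that fell were 33.3% of the list, near the 28.5% of all genes tested. The list rested in part on replicate 3 of LN. Mki67, a proliferation marker, had 74.1, 41.5 and 43 CPM in cKO skin, 28.9, 58.5 and 52.3 CPM in WT skin and 33, 35.6 and 112 CPM in WT LN, and was not called (-0.19 ± 0.43). WT skin had 16 lower and 2 higher cell cycle genes, with a median of -1.05. The cKO skin median of -0.73 ran from -1.03 to -0.09 over the alternatives.

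Energy genes split by pathway. Glycolysis and hypoxia genes were higher in cKO skin for 21 of 26 tested members, with a median of 1.27, and Pdk1, the kinase that shuts pyruvate out of mitochondria, was lower (-1.88 ± 0.23). Egln3, an oxygen-sensing hydroxylase, had 156, 161 and 187 CPM in cKO skin, 172, 162 and 157 CPM in WT skin and 6.14, 4.98 and 6.12 CPM in WT LN. Ldha, which makes lactate, rose by 1.20 ± 0.11. Oxidative phosphorylation genes were lower for 20 of 35 and higher for Cycs, a call lost without cKO skin replicate 1 (adjusted p = 0.0555), and Uqcrfs1, with a median of -0.46 (WT skin, 13 lower, 3 higher, median -0.23). Ndufs8, a core subunit of complex I, had 81.8, 63.2 and 55.9 CPM in cKO skin, 112, 153 and 152 CPM in WT skin and 269, 217 and 259 CPM in WT LN, and Ndufv1, another, had 106, 88.1 and 78 CPM in cKO skin, 169, 188 and 159 CPM in WT skin and 246, 213 and 267 CPM in WT LN. Both were below WT skin in every cKO library, with differences of -1.05 (adjusted p = 0.00288) and -0.92 (adjusted p = 0.00216).

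Among 29 lipid genes 15 were higher in cKO skin and 4 lower, with a median of 0.38 (WT skin, 15 and 7, median 0.93). The fatty acid activator Acsl3 rose by 2.15 ± 0.16 and the fatty acid carrier Fabp5 by 1.73 ± 0.31. The 1 lipid gene that differed between the skin groups was Aqp3, a glycerol and water channel, with 11.2, 15 and 14.3 CPM in cKO skin, 44, 28.4 and 47.1 CPM in WT skin and 16.6, 20.2 and 14.5 CPM in WT LN. It was not called against LN in cKO skin (-0.34), was 1.22 above it in WT skin, and differed by -1.56 between the skin groups (adjusted p = 0.00446). Of 26 sterol and fatty acid synthesis genes 12 were higher in cKO skin and 3 lower, none different between the skin groups. Cyp51, a sterol demethylase, rose by 1.77 ± 0.17 over LN.

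**Figure D4:**
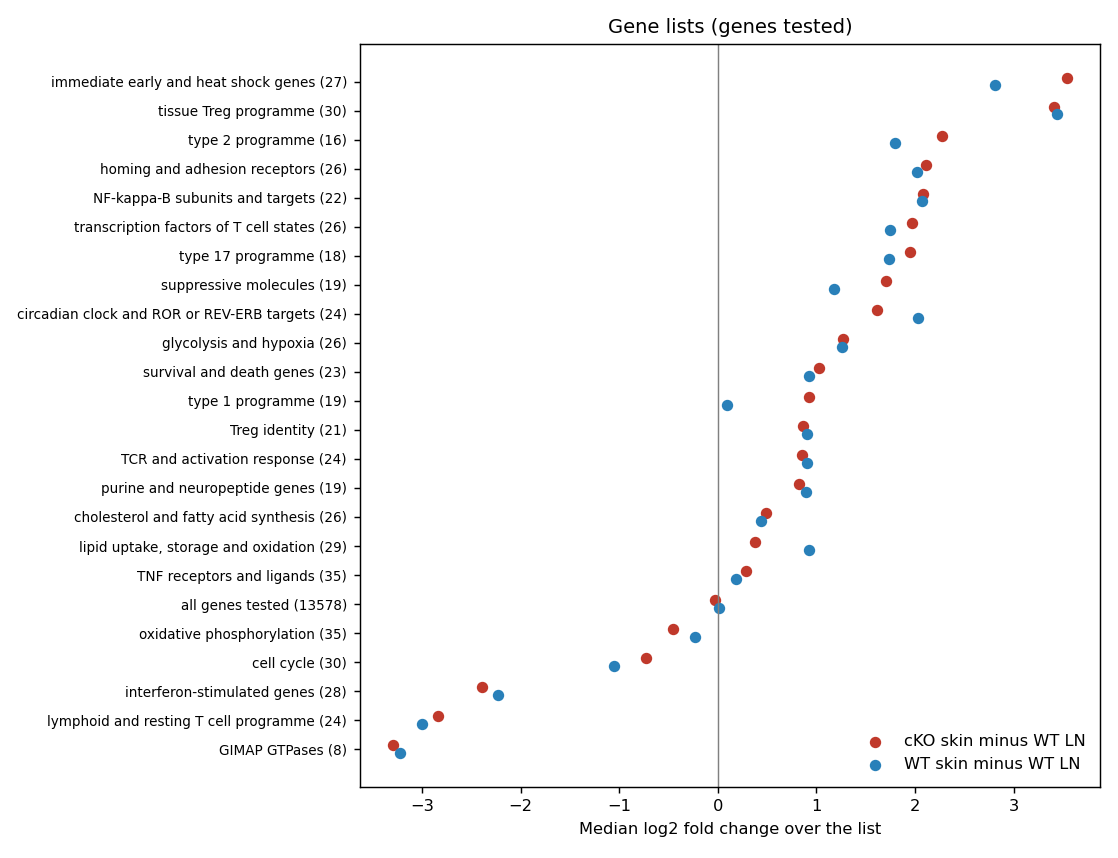
Median log2 fold change over each gene list in cKO skin minus WT LN and in WT skin minus WT LN (horizontal axis), with the number of genes tested in brackets. Both comparisons use the same WT LN libraries. The medians of the programme lists drawn, which leave out the cell type markers, run from -3.29 for GIMAP GTPases to 3.54 for immediate early and heat shock genes in cKO skin, against -0.03 for all genes tested.

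The 109 genes that differed between cKO and WT skin were sorted by their calls against LN. Of the 55 lower in cKO skin, 17 were above LN in both skin groups, 14 were above LN in WT skin and not called in cKO skin, and 15 were not called in WT skin and below LN in cKO skin. A further 8 were below LN in both, and Tnfrsf25 was above LN in WT skin and below it in cKO skin. Of the 54 higher in cKO skin, 24 were above LN in both, 14 were below LN in WT skin and not called in cKO skin, 7 were above LN in cKO skin and not called in WT skin, and 7 were below LN in both. Gpr15 and Bace2, a membrane protease of the BACE family, were above LN in cKO skin and below it in WT skin. An uncalled change is not a change of 0, and these counts follow from the same libraries as the calls.

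Skin-high genes that were lower in cKO included Emb and Itgb3. Emb, an adhesion and transporter-chaperone protein, had 843, 771 and 696 CPM in cKO skin, 2096, 2247 and 2422 CPM in WT skin and 252, 251 and 183 CPM in WT LN, so cKO skin stood between the others. Itgb3, the integrin beta-3 chain, had 21.5, 22.1 and 18.4 CPM in cKO skin, 54.2, 50.9 and 57.6 CPM in WT skin and 28.9, 24.3 and 25.3 CPM in WT LN. Its cKO skin libraries were all below LN, a change that was not called (-0.34 ± 0.17, adjusted p = 0.0972), and it was lower than in WT skin by 1.39 on the log2 scale (-1.39 ± 0.17, adjusted p = 5.62e-04). Sdc4, a heparan sulfate proteoglycan, and Ccrl2, a chemerin-binding receptor, were still called above LN in cKO skin, by 3.41 and 2.07, with cKO minus WT differences of -0.83 and -1.15.

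Skin-high genes that were higher in cKO included several of nucleotide and neuropeptide signalling. Pde3b, a cAMP phosphodiesterase, had 30.6, 55.5 and 60.5 CPM in cKO skin, 5.53, 6.59 and 2.8 CPM in WT skin and 2.24, 2.41 and 2.17 CPM in WT LN, a cKO minus WT difference of 3.29 ± 0.34 (adjusted p = 1.79e-04). P2ry14, the UDP-glucose receptor, had 79.3, 47.1 and 68 CPM in cKO skin, 16.6, 10 and 23.8 CPM in WT skin and 2.91, 2.63 and 2.32 CPM in WT LN. In both genes the cKO skin libraries were above all others. Of 19 tested members of the purine and neuropeptide list, cKO skin was higher than WT skin in 4 (Pde3b, P2ry14, Gad1 and Calca) and lower in 2 (Nt5e and Colq). Gad1 and Colq are in that list but are neither purine nor neuropeptide genes, and its members were chosen with earlier results known. Calca, the precursor of calcitonin and CGRP, had 173, 159 and 183 CPM in cKO skin, 52.7, 89 and 89.9 CPM in WT skin and at most 0.159 CPM in WT LN, and its difference of 1.15 (adjusted p = 0.0413) was not called without any 1 of the 6 skin libraries (adjusted p 0.0714 to 0.157). Rnf128, the anergy-associated ubiquitin ligase GRAIL, had 90, 93.3 and 119 CPM in cKO skin, 38, 34.3 and 24.9 CPM in WT skin and 5.11, 5.8 and 3.77 CPM in WT LN.

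Among genes lower in the mean of both skin groups than in LN, those lower in cKO than in WT skin included Colq and Rarg, neither called in WT skin against LN, so that their place in this class comes from the fall in cKO skin. Colq, the collagen tail of acetylcholinesterase, had 1.14, 2.03 and 0.625 CPM in cKO skin, 26, 40.4 and 31.9 CPM in WT skin and 19.5, 20.7 and 31.4 CPM in WT LN, a cKO minus WT difference of -4.70 ± 0.38 (adjusted p = 9.11e-06). Rarg, a retinoic acid receptor, had 30.1, 35.7 and 32.7 CPM in cKO skin, 86.1, 91 and 64.9 CPM in WT skin and 78.9, 84.8 and 69.9 CPM in WT LN. For both, WT skin overlapped with LN and cKO skin was below. The Rarg difference of -1.30 ± 0.20 (adjusted p = 0.00339) was not called without the 3 libraries that stand apart (0.0611). Genes below LN in WT skin and higher in cKO skin included Themis, Satb1, Sidt1 and Nsg2. Themis, a regulator of TCR signalling, had 33.7, 27.7 and 25.9 CPM in cKO skin, 10.8, 8 and 12.5 CPM in WT skin and 36.9, 39.9 and 32.6 CPM in WT LN. Satb1, a chromatin organiser of T cells, had 108, 174 and 110 CPM in cKO skin, 33.2, 36 and 23.3 CPM in WT skin and 88.3, 80.1 and 56.7 CPM in WT LN, and its mean skin level was not called against LN. Themis and Satb1 were not called against LN in cKO skin (adjusted p = 0.177 and 0.0504), and differed from WT skin by 1.48 ± 0.21 (adjusted p = 0.00188) and 2.09 ± 0.34 (adjusted p = 0.00886). The Satb1 difference was not called without the 3 libraries that stand apart (adjusted p = 0.0948), with limma-voom (0.146) or without replicate 3 of WT skin (0.0581), and its rise over LN was called under 4 alternatives (adjusted p 0.0107 to 0.043). Sidt1, a transmembrane protein of the SID family, had 20.8, 39.7 and 26.6 CPM in cKO skin, 9.74, 9.02 and 7 CPM in WT skin and 42.5, 42.7 and 50.5 CPM in WT LN, and its fall against LN in cKO skin was not called without cKO skin replicate 1 or 3 or LN replicate 3 (adjusted p 0.0738 to 0.112). Nsg2, a vesicle trafficking protein, had 27.3, 25.3 and 29 CPM in cKO skin, 12.4, 9.55 and 6.62 CPM in WT skin and 160, 178 and 139 CPM in WT LN. For both genes every cKO skin library lay between the other groups.

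**Figure D5:**
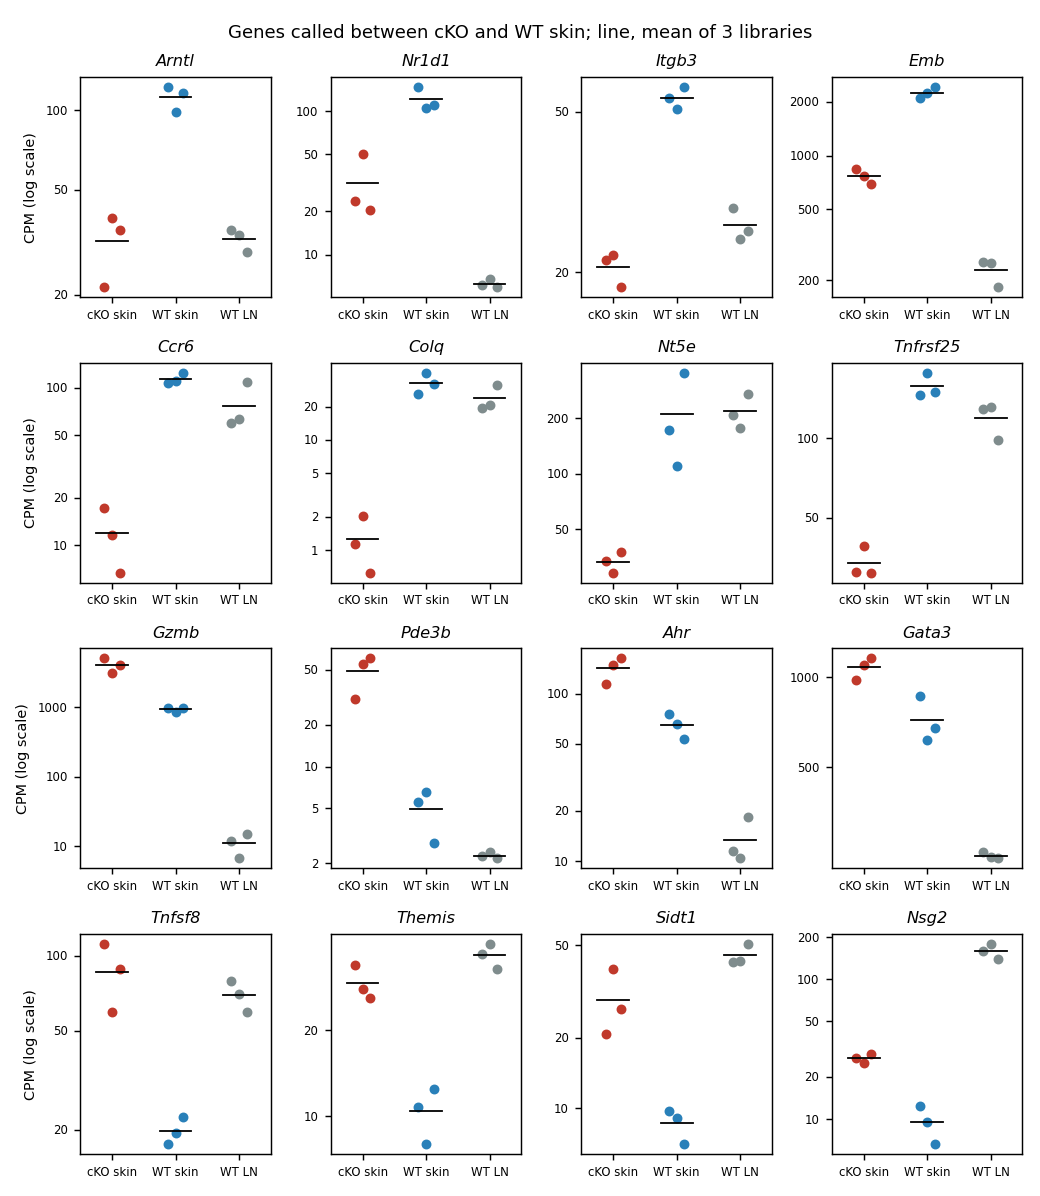
CPM on a log axis in each library of cKO skin, WT skin and WT LN for 16 genes called between cKO and WT skin, with the mean of 3 libraries as a line. From the top, the rows hold genes above LN in the mean of both skin groups and lower in cKO than in WT skin, genes below LN in that mean and lower in cKO skin, genes above LN and higher in cKO skin, and genes below LN and higher in cKO skin. In the second row WT skin was not below LN by test. In each panel the cKO and WT skin libraries do not overlap.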

How the data were processed

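Tregs were sorted from skin and skin-draining LN, and RNA was read as 75 bp single-end reads after a SMART-Seq v4 library kit, per the labels' protocols. The submitters' processing notes name TopHat2 2.0.6, build mm9 and DESeq2, the last with no version. The read counter, its use of strand and the annotation are not given in the sources used here, so reads of near-identical or overlapping genes, such as GIMAP neighbours or Hspa1a and its copy, could be divided between them. The authors deposited raw counts per gene and library, whole numbers totalling 19774723 to 27745008 over the 15 libraries, and these alone were used. Counts are of PCR reads without molecular identifiers.

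Groups came from the library titles. In R 4.3.3 with edgeR 4.0.16, filterByExpr over the 5 groups kept 13578 of 24015 genes, libraries were scaled by TMM (factors 0.903 to 1.26), and 1 robust quasi-likelihood model was fitted to all 15 libraries. Contrasts were cKO skin against LN, WT skin against LN, cKO against WT skin, and the mean of both skin groups against LN, each adjusted by Benjamini-Hochberg over all genes tested and called under 0.05. The common dispersion was 0.138. Standard errors are the log2 change over the root of its F statistic. CPM use the TMM-scaled library size. Lists were not tested as sets and are described by counts and medians over tested members. The pipeline was tested on simulated counts.

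The members, the 23 programme lists and the 9 marker lists were chosen with earlier results of these data known. Named genes were taken by rule: 18 followed throughout, the 12 largest called changes in each direction against LN among annotated genes with a mean log2 CPM of 3 or more, groups that do not overlap and at least 10 counts in the lower group, up to 4 called genes per list by adjusted p, up to 8 genes of each class that differed between cKO and WT skin (mean log2 CPM of 2 or more), and the 5 smallest adjusted p in each direction. Other genes in the text, such as Gpr15, Bace2, Satb1, Cd40lg, Runx1, Aqp3 and Nkg7, were chosen after their values were seen. Alternatives were relative log expression factors, DESeq2 1.42.0, limma 3.58.1 voom with sample weights, a filter that asked for only 1 count, another that asked for 50 in each of 3 libraries, a fit of only the groups compared, the replicate number as a block, and each library left out in turn. A run without replicate 1 of cKO skin, replicate 2 of WT skin and replicate 3 of WT LN was added after seeing the data. Some genes of the lists are withheld and not reported here.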

Additional observations from a re-analysis of the deposited data

Results flagged for a closer look

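For 3 genes the skin against LN change was called in opposite directions in cKO and WT skin and the difference itself passed the test. Bace2, a membrane protease, had 6.56, 5.52 and 5.35 CPM in cKO skin, 0.567, 0.0884 and 0.215 CPM in WT skin and 0.781, 1.3 and 1.04 CPM in WT LN, a cKO minus WT skin difference of 4.3 log2 (SE 0.76, edgeR adjusted p = 0.00992). It was not called with limma-voom, without replicate 3 of WT skin or without the 3 libraries that stand apart (adjusted p up to 0.114). For Gpr15, the homing receptor, the difference was 2.45 log2, with all cKO skin libraries above and all WT skin libraries below those of LN. For Tnfrsf25, the receptor DR3, it was -2.21 log2, with all cKO skin libraries below and all WT skin libraries above those of LN, and it was called under every alternative run (-2.33 to -2.07).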

How the results depend on the processing

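In cKO skin against LN, 139 of 144 called genes that the rule names were called under every alternative that gave them an adjusted p. Dcn, Itga2b, Pf4, Sidt1 and Sparc were lost under some. Of 90 called genes chosen after their values were seen, 80 were called under every such alternative. An alternative whose filter left a gene out was not counted for that gene. Counts of called genes ran from 6584 (without LN replicate 2) to 8808 (limma-voom). Without LN replicate 3, the uncalled changes of Cd74 (-0.01) and Top2a (-0.45) turned to called rises of 0.72 (adjusted p = 0.0136) and 0.54 (adjusted p = 0.0447); over all left-out libraries they ran from -0.31 to 0.72 and from -0.77 to 0.54. In cKO against WT skin, 19 of 39 called rule genes were called under every such alternative. Arntl, Ccr6, Tnfrsf25, Gzmb, Colq, Nt5e, Emb, Itgb3 and Pde3b were among these 19. Of 16 such genes chosen after their values were seen, 6 were. DESeq2 called 323 genes in place of 109, 145 among skin-high genes in place of 55 and 105 among LN-high genes in place of 38; limma-voom called 25 of the LN-high genes and the fit of only the groups compared 14. The cause was not tested. That last fit gave 52 higher and 26 lower genes between the skin groups. Leaving out 1 library gave 60 to 133 genes (67 without cKO replicate 2, 62 without cKO replicate 3, 60 without WT skin replicate 3), 29 to 66 skin-high and 21 to 46 LN-high genes. Without the 3 libraries that stand apart there were 75, 29 higher and 46 lower, and the LN-high median was -0.0625. That run called 39 skin-high and 27 LN-high genes. In it 16 list medians of cKO skin against LN moved by at least their standard deviation across cKO skin libraries, and 16 did not. With limma-voom 18 moved and 14 did not. Over the runs with 1 library left out, a list median moved 48 times and did not 144 times. Same-numbered cKO skin and LN libraries correlated at -0.129, -0.0361 and -0.102 in their deviations, cKO and WT skin at -0.0304, -0.0911 and -0.0599. Genotype keeps these groups from sharing mice. Same-numbered WT skin and LN libraries correlated at 0.0559, 0.0172 and 0.127, and the other pairs of these groups at -0.111 to 0.0553. Titles name no animals, so whether WT skin and LN libraries share mice is not known. With the replicate number as a block 7551 genes were called against LN and 90 between the skin groups, 46 higher and 44 lower.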
